A study of Rattus norvegicus with 9 samples.

Results

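Intercalated cells (ICs) of the collecting duct were followed here through the nuclei that carried the IC label in single-nucleus ATAC sequencing (snATAC-Seq) of rat kidney. In this assay a transposase cuts accessible DNA, and a barcode marks the fragments of each nucleus. The members were all nuclei with that label in the deposited annotation, 2808 of 53298 nuclei (5.27%), and they came from all 9 libraries. IC was the 8th most frequent of 12 labels. It made up 11.7% of the 23996 nuclei outside the proximal tubule, and 17.0% of the 16534 nuclei labelled loop of Henle (LOH), distal convoluted tubule (DCT), principal cell (PC) or IC. The proximal labels left out of the first of these totals were convoluted (PCT), straight (PST) and injured (iPT) proximal tubule.

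ICs sit singly among the PCs in the connecting tubule and collecting duct and handle acid and base. Type A cells secrete protons into the urine through an apical V-type proton pump and return bicarbonate to the blood through the anion exchanger encoded by Slc4a1. Type B cells secrete bicarbonate and take up chloride through pendrin, the product of Slc26a4. Foxi1 encodes a transcription factor needed for both types, and Atp6v1g3 encodes a subunit of their proton pump. PCs, by contrast, reabsorb sodium through the epithelial sodium channel under the control of aldosterone, the hormone that deoxycorticosterone acetate (DOCA) imitates.

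The animals were Sprague-Dawley rats, with an age of 6 weeks on every label, and the tissue was whole kidney. Rats were killed 3 or 6 weeks after DOCA began. Whether the labelled 6 weeks are the age of the animal or the time since DOCA began is not stated. The labels do not otherwise say which of these times applies to a library. Control rats (2 libraries) had sham surgery. DOCA rats (2 libraries) lost a kidney, received DOCA at 50 mg/kg each week, drank salt water and were gavaged daily with vehicle. The Finerenone (2 libraries), Spironolactone (2 libraries) and Amiloride (1 library) groups had the same surgery, DOCA and salt, plus a daily drug. The removal of a kidney is listed for Amiloride by the labels, while the methods of the study name it only for the other DOCA groups. The daily dose was 10 mg/kg for finerenone, while spironolactone was given at 50 and amiloride at 20 mg/kg. Finerenone and spironolactone block the mineralocorticoid receptor, the former as a nonsteroidal and the latter as a steroidal compound, while amiloride blocks the epithelial sodium channel. A difference between DOCA and Control therefore joins the hormone with the surgery and the salt, which cannot be told apart here. Nothing in the labels says whether each library came from a separate rat, so that p values measure only the spread between libraries, which may be technical.

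The libraries were made with either of 2 kits. A single-cell ATAC kit (scATAC) gave 4 libraries of 1817 to 2721 nuclei, 1 in each group except Amiloride. The Multiome kit gave 5 libraries of 5095 to 15235 nuclei, 1 in each group. Proximal nuclei made up 64.5% to 81.2% of the scATAC libraries and 41.3% to 59.2% of the Multiome libraries. The Multiome libraries held 82.2% of all nuclei but 2623 of the 2808 IC nuclei (93.4%). The cell type markers of ICs could not be set against these nuclei, because values of genes were not analysed here, and the IC name rests on the authors' annotation. Types A and B have no separate labels in the deposited annotation.

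IC nuclei were scarce in every scATAC library and common in every Multiome library. They numbered 59 of 2455 nuclei in Control scATAC (2.40%), 32 of 2471 in DOCA scATAC (1.295%), 37 of 1817 in Finerenone scATAC (2.04%) and 57 of 2721 in Spironolactone scATAC (2.09%). With the Multiome kit they numbered 490 of 5095 in Control (9.62%), 459 of 9143 in DOCA (5.02%), 278 of 6132 in Finerenone (4.53%), 764 of 15235 in Spironolactone (5.01%) and 632 of 8229 in Amiloride (7.68%). The ranges of the kits did not overlap. Within each kit the Control library held the highest IC share. The exact (Clopper-Pearson) 95% interval of Control Multiome, 8.82% to 10.5%, lay above those of the other Multiome libraries. Such intervals cover counting error only and not the spread between rats.

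With the proximal nuclei left out, the order of the groups was the same in both kits. IC nuclei made up 12.8% of non-proximal nuclei in Control scATAC (interval 9.87% to 16.2%) and 16.4% in Control Multiome (15.1% to 17.8%). In DOCA they made up 3.64% with the scATAC kit (2.51% to 5.11%) and 8.93% with the Multiome kit (8.16% to 9.74%). Both Control libraries thus lay above both DOCA libraries, also by their counting intervals. Finerenone gave 6.40% and 9.65%, and Spironolactone 8.70% and 12.3%, in scATAC and Multiome. The single Amiloride library stood at 15.1%, second to Control among the Multiome libraries. From high to low, Control, Spironolactone, Finerenone and DOCA followed each other in both kits.

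Among the LOH, DCT, PC and IC nuclei alone, the 2 Control libraries had almost the same IC share, 23.0% (59 of 257) with scATAC and 23.1% (490 of 2125) with Multiome. Spironolactone was also alike in both kits, at 15.9% and 16.5%. DOCA was not, at 5.63% (32 of 568) with scATAC against 13.0% (459 of 3528) with Multiome. Finerenone gave 10.4% and 14.5%, and Amiloride 22.7%. The group order was again Control, Spironolactone, Finerenone and DOCA in both kits, with Amiloride between Control and Spironolactone.

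**Figure D1:**
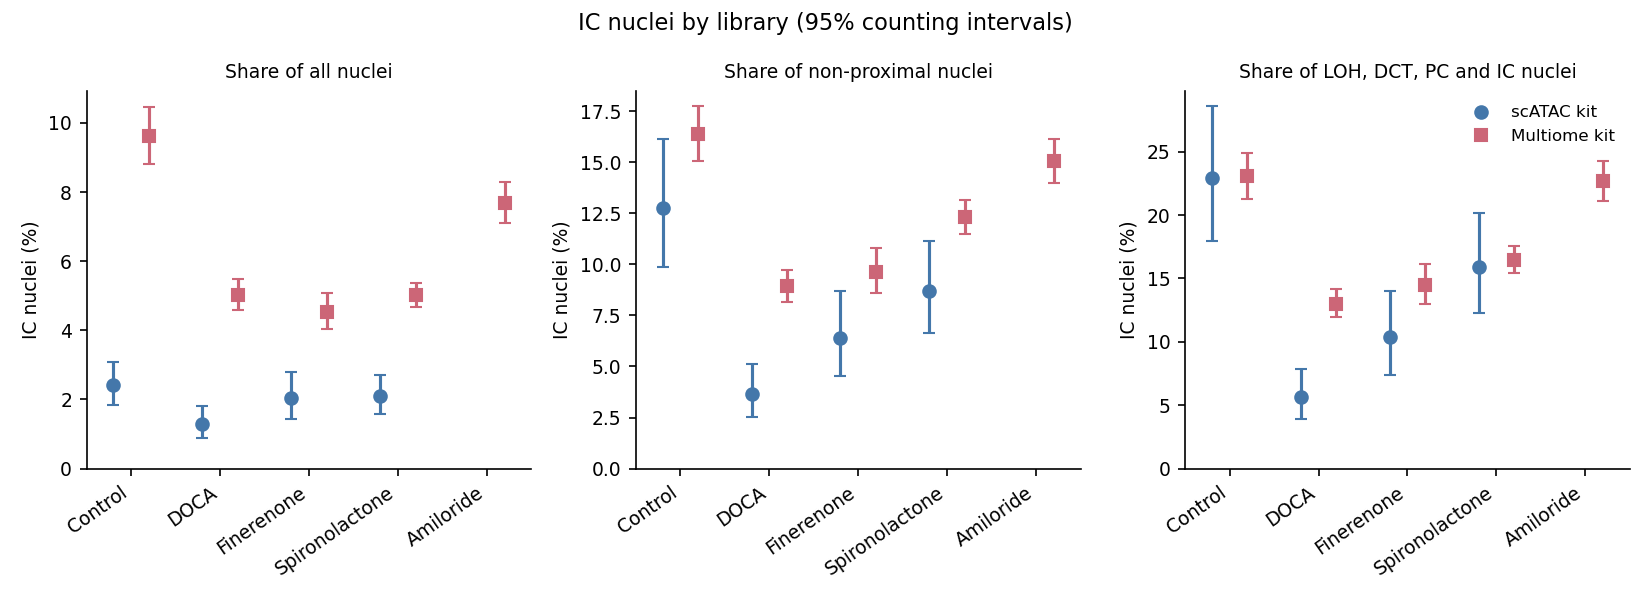
IC nuclei in percent of all nuclei, of non-proximal nuclei and of LOH, DCT, PC and IC nuclei (vertical axes, each starting at 0) in each of the 9 libraries, by group; circles are scATAC and squares Multiome libraries, and bars are exact 95% intervals for counting error. Multiome lies above scATAC throughout the first panel, while in the last panel the Control libraries coincide at 23.0% and 23.1% and DOCA scATAC is the lowest at 5.63%.

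DOCA against Control asks what the mineralocorticoid and salt model changes in the makeup of the kidney. The odds that a non-proximal nucleus was IC fell by 1.47 on the log2 scale (SE 0.45, 95% confidence interval -2.39 to -0.55), which is a factor of 0.361 (0.190 to 0.684). The change passed the test (limma over the 9 non-proximal labels with group and kit as terms, adjusted p = 0.00886). In the same comparison limma called 4 of the 9 labels, 44.4%, so that IC was 1 of several labels called, with the third largest change. The difference was -1.94 within scATAC and -0.999 within Multiome. It rested on the scATAC libraries of these groups for its size: the change was -1.25 without Control scATAC (adjusted p = 0.111) and -1.06 without DOCA scATAC (adjusted p = 0.149). The adjusted p was 0.0573 in limma without the kit term, and 0.0580 with the spread of each label taken by itself, an alternative chosen after the data were seen.

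As a share of all nuclei the change was smaller, -0.95 (-2.10 to 0.19, adjusted p = 0.1705 in limma over 12 labels), and did not pass the test, where 25.0% of labels were called. Proximal nuclei made up 81.2% of Control scATAC and 64.5% of DOCA scATAC, and 41.3% and 43.8% of the Multiome libraries of these groups. The within-kit changes of the IC share of all nuclei were nearly equal, -0.90 with scATAC and -1.01 with Multiome. None of the neighbouring segments passed the test. Among non-proximal nuclei the log2 change from Control to DOCA was 0.80 for PC (-0.12 to 1.73), 0.70 for DCT (-0.22 to 1.62) and -0.10 for LOH (-1.03 to 0.82) in limma. These are counts of nuclei relative to each other, so that fewer IC nuclei and more of the other nuclei cannot be told apart.

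**Figure D2:**
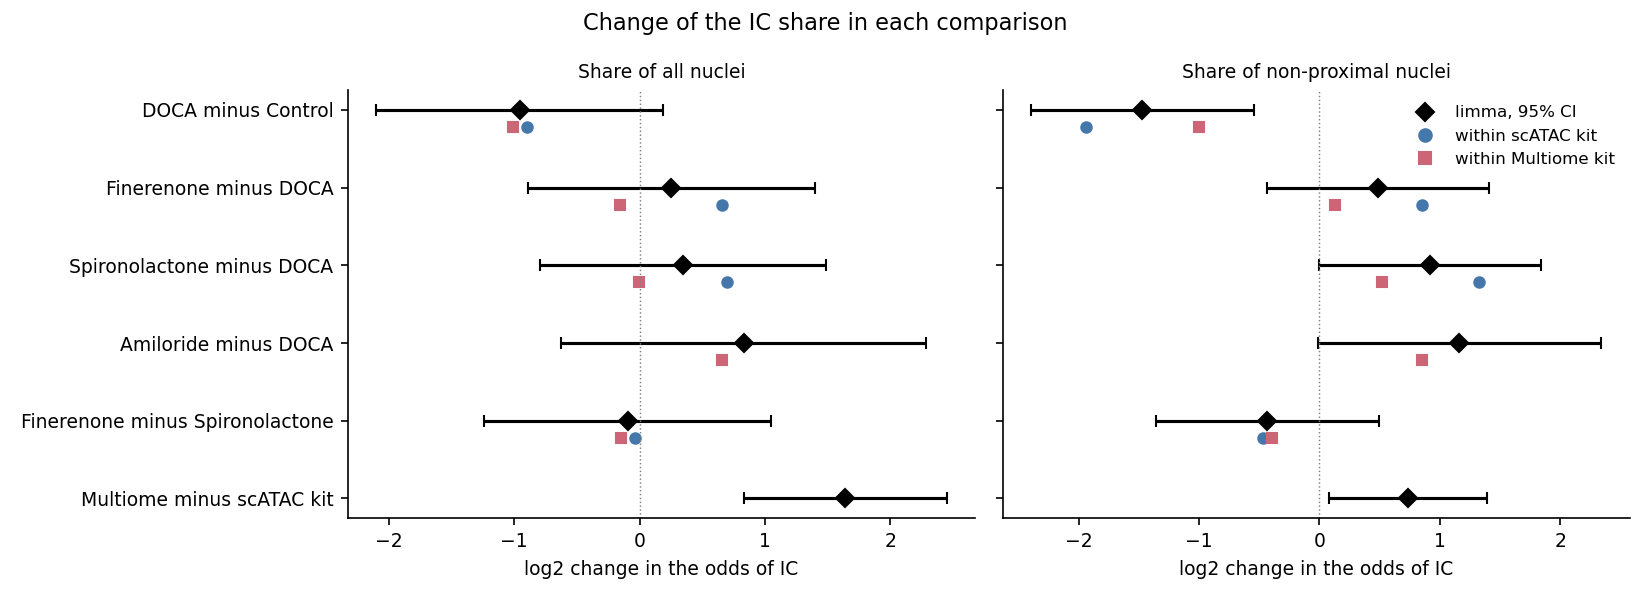
Log2 change in the odds of IC (horizontal axis) for each comparison, as a share of all nuclei (left) and of non-proximal nuclei (right). Diamonds with bars are limma estimates with 95% confidence intervals, and circles and squares are the single differences within the scATAC and Multiome kits. On the right, the interval of DOCA minus Control, -2.39 to -0.55, is the only one between groups that leaves out 0.

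The ratio of IC to PC nuclei compares the 2 cell types that share the collecting duct, and it does not depend on the other labels. Control was the only group with more IC than PC nuclei in both kits, 59 against 46 with scATAC (1.28 IC per PC) and 490 against 331 with Multiome (1.48 IC per PC). In DOCA there were 32 IC against 152 PC nuclei with scATAC (0.211) and 459 against 863 with Multiome (0.532). The counting intervals of the DOCA libraries, 0.139 to 0.310 and 0.474 to 0.596, lay below those of both Control libraries, 0.858 to 1.93 and 1.29 to 1.71. The log2 difference DOCA minus Control was -2.59 with scATAC and -1.48 with Multiome.

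Finerenone and Spironolactone lay between Control and DOCA in both kits. Finerenone had 37 IC against 77 PC nuclei with scATAC (0.481) and 278 against 291 with Multiome (0.955). Spironolactone had 57 against 75 (0.760) and 764 against 754 (1.01). In Amiloride, 632 IC stood against 799 PC nuclei (0.791), above DOCA Multiome and below the other Multiome libraries. Amiloride was thus second for the IC share but next to last for the ratio to PC, and its PC nuclei made up 19.0% of non-proximal nuclei, the highest of any library.

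The ratio to DCT, the segment before the collecting duct system, followed the ratio to PC in its extremes. It was 1.16 and 1.05 IC per DCT nucleus in Control (scATAC and Multiome), 0.188 and 0.442 in DOCA, 0.435 and 1.04 in Finerenone, 0.518 and 0.717 in Spironolactone, and 0.650 in Amiloride. Control was the highest and DOCA the lowest in both kits. The order in between was not shared: Spironolactone lay above Finerenone with scATAC and below it with Multiome.

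Set against LOH nuclei, the picture was less uniform. Control had 0.584 and 0.585 IC per LOH nucleus in scATAC and Multiome, the closest agreement of any ratio between kits. DOCA had 0.150 and 0.393, Finerenone 0.234 and 0.258, and Spironolactone 0.491 and 0.372. DOCA was the lowest with scATAC, whereas Finerenone was the lowest with Multiome. Amiloride stood apart at 1.63 IC per LOH nucleus (counting interval 1.44 to 1.86), the only library with more IC than LOH nuclei. Its 387 LOH nuclei were 9.22% of its non-proximal nuclei, against 17.7% to 37.5% in the other libraries.

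**Figure D3:**
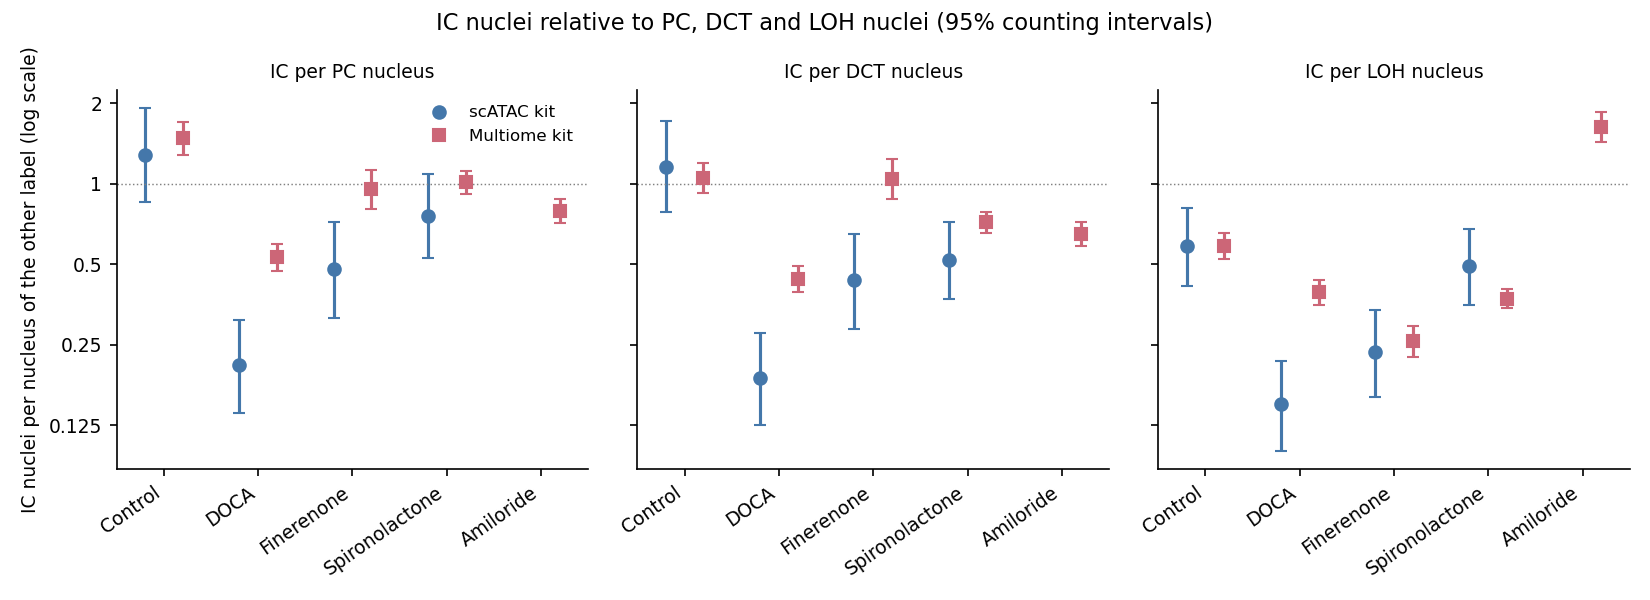
IC nuclei per PC, per DCT and per LOH nucleus (vertical log axis, shared by the panels) in each library; circles are scATAC and squares Multiome libraries, bars are exact 95% counting intervals and the dotted line marks 1. DOCA is the lowest group in the first and second panels, and Amiloride at 1.63 stands above all other libraries in the third.

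Finerenone against DOCA, and Spironolactone against DOCA, ask what receptor blockade changes in the model. The IC odds among non-proximal nuclei were 0.49 higher on the log2 scale in Finerenone than in DOCA (-0.44 to 1.41, limma adjusted p = 0.323), and 0.92 higher in Spironolactone (-0.0033 to 1.84, adjusted p = 0.152). Neither passed the test. In these comparisons limma called 33.3% of the 9 labels for Finerenone and 0% for Spironolactone, where 2 labels had an unadjusted p under 0.05. Both drugs lay above DOCA in both kits, by 0.85 and 0.13 for Finerenone and by 1.32 and 0.52 for Spironolactone in scATAC and Multiome. In each case the scATAC gap was the larger. The sizes moved with the DOCA library kept: Finerenone minus DOCA was 0.076 without DOCA scATAC and 0.90 without DOCA Multiome, and Spironolactone minus DOCA was 0.51 and 1.33, none past the threshold.

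As a share of all nuclei, the changes from DOCA were 0.25 for Finerenone (-0.89 to 1.40, adjusted p = 0.729) and 0.35 for Spironolactone (-0.80 to 1.49, adjusted p = 0.592). Limma called 16.7% and 0% of the 12 labels in these comparisons, the latter with 3 labels at an unadjusted p under 0.05. Within the Multiome kit both differences were at or below 0, -0.15 for Finerenone and -0.0022 for Spironolactone, against 0.66 and 0.70 within scATAC. Leaving out single libraries gave -0.056 to 0.56 for Finerenone and 0.11 to 0.58 for Spironolactone, none past the threshold. The 3 Multiome libraries of DOCA, Finerenone and Spironolactone, at 5.02%, 4.53% and 5.01% of all nuclei, had overlapping counting intervals.

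Amiloride, the channel blocker, had 1 library, which limma takes to vary like the others. Its IC odds were 1.16 higher than in DOCA among non-proximal nuclei (-0.014 to 2.34, adjusted p = 0.0788) and 0.83 higher among all nuclei (-0.63 to 2.29, adjusted p = 0.308), neither past the threshold. The latter was 1.65 without the kit term (adjusted p = 0.243). Limma called 44.4% of labels in the first and 33.3% in the second. Within the Multiome kit the difference from DOCA was 0.85 among non-proximal nuclei. The counting interval of Amiloride, 14.0% to 16.2%, lay above that of DOCA Multiome, 8.16% to 9.74%, and overlapped that of Control Multiome.

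Finerenone and Spironolactone, given at different doses, had IC odds among non-proximal nuclei that differed by -0.43 (Finerenone minus Spironolactone, -1.35 to 0.49, limma adjusted p = 0.622). The difference was -0.47 within scATAC and -0.39 within Multiome. Among all nuclei it was -0.09 (-1.24 to 1.05, adjusted p = 0.949), and its sign turned without Spironolactone scATAC (0.14) and without Finerenone Multiome (0.22). Both intervals are wide and do not show that the drugs act alike. Limma called 11.1% of labels for this comparison among non-proximal nuclei and 8.33% among all nuclei.

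A test that pools no spread between labels was run over the 5 groups at once, by exact permutation of the group labels within kits (2880 assignments, two-sided by construction, smallest p 0.00833). The p was 0.283 for the IC share of all nuclei, 0.025 for the share of non-proximal nuclei and 0.0417 for the share of LOH, DCT, PC and IC nuclei. For the ratios it was 0.025 to PC, 0.075 to DCT and 0.142 to LOH. The p of each ratio moved widely when single libraries were left out. After adjustment over the 8 measures permuted, which include 2 on the UMAP, the lowest adjusted p was 0.1, for the non-proximal share and the ratio to PC, so that none passed 0.05. Within a kit each group had 1 library, and no test of a single pair of groups was possible there.

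The kit difference exceeded every group difference in the IC share of all nuclei. With group in the model, the IC odds were 1.64 higher on the log2 scale in Multiome than in scATAC libraries (SE 0.40, 0.83 to 2.45), a factor of 3.12 (1.78 to 5.46) and the largest kit difference of the 12 labels (limma adjusted p = 0.00261, where 25.0% of labels were called). The next was LOH at 1.44 (adjusted p = 0.00536). In Control, DCT (2.23) and LOH (2.19) had larger kit differences than IC, as had LOH (1.80) in Spironolactone. For IC the difference was 2.10 in Control, 1.99 in DOCA, 1.18 in Finerenone and 1.29 in Spironolactone. The exact sign-flip permutation over these 4 pairs could not pass 0.05, since its smallest p is 2 in 16, and it gave that value (adjusted p = 0.25 over 8 measures). The adjusted p in limma was 0.0545 without either DOCA library, and 0.0740 with the spread of each label taken by itself.

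Leaving out the proximal nuclei brought the kit difference to 0.73 (0.08 to 1.39, limma adjusted p = 0.0687, 11.1% of labels called), again higher in Multiome in 4 of 4 groups. Among LOH, DCT, PC and IC nuclei it averaged 0.47 ± 0.61 (SD, n = 4 groups, exact sign-flip permutation again 2 in 16, adjusted p = 0.25, in a design that cannot pass 0.05), but it was not spread evenly over the groups. It was 0.00077 in Control and 0.050 in Spironolactone, against 0.54 in Finerenone and 1.31 in DOCA. For the ratio to PC the same differences were 0.21, 0.41, 0.98 and 1.32. With 1 library of each kit per group, whether the kit difference depended on the group could not be tested. For these 2 measures and the non-proximal share, where it was 1.35, DOCA had the largest kit difference of the 4 groups. For the share of all nuclei it was larger in Control, and for the ratio to DCT in Finerenone (1.25 against 1.21 in DOCA).

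On the UMAP, the deposited 2-dimensional map of the nuclei after batch correction, the IC nuclei formed 1 compact island. Linking IC nuclei less than 0.5 map units apart gave an island of 2730 nuclei (97.2%), while the other 78 (2.78%) lay in 33 groups of at most 16 nuclei, 21 of them single nuclei. The island spanned 2.67 by 3.89 units of a map of 16.8 by 17.5 units. No other group reached 20 nuclei at a linking distance of 0.3, 0.5 or 1, so that types A and B, if both were present, did not form separate islands of that size. The labels come from clusters of the same data, so that a compact island is a description and no test of the label.

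The island stood clear of the other tubule labels. The 15 nearest neighbours of its nuclei were IC in 97.3% of cases, and no other label reached 1%. Over all IC nuclei the share was 94.97%, against 91.9% own-label neighbours for LOH, 89.5% for DCT and 88.6% for PC. PC and DCT bordered each other, with DCT at 7.53% of the neighbours of PC, whereas PC made up only 0.594% of the neighbours of IC. Measured between the medians of the labels, PC at 11.2 units was farther from IC than LOH at 6.45 and DCT at 8.57 units. Distances on such a map are not to scale.

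**Figure D4:**
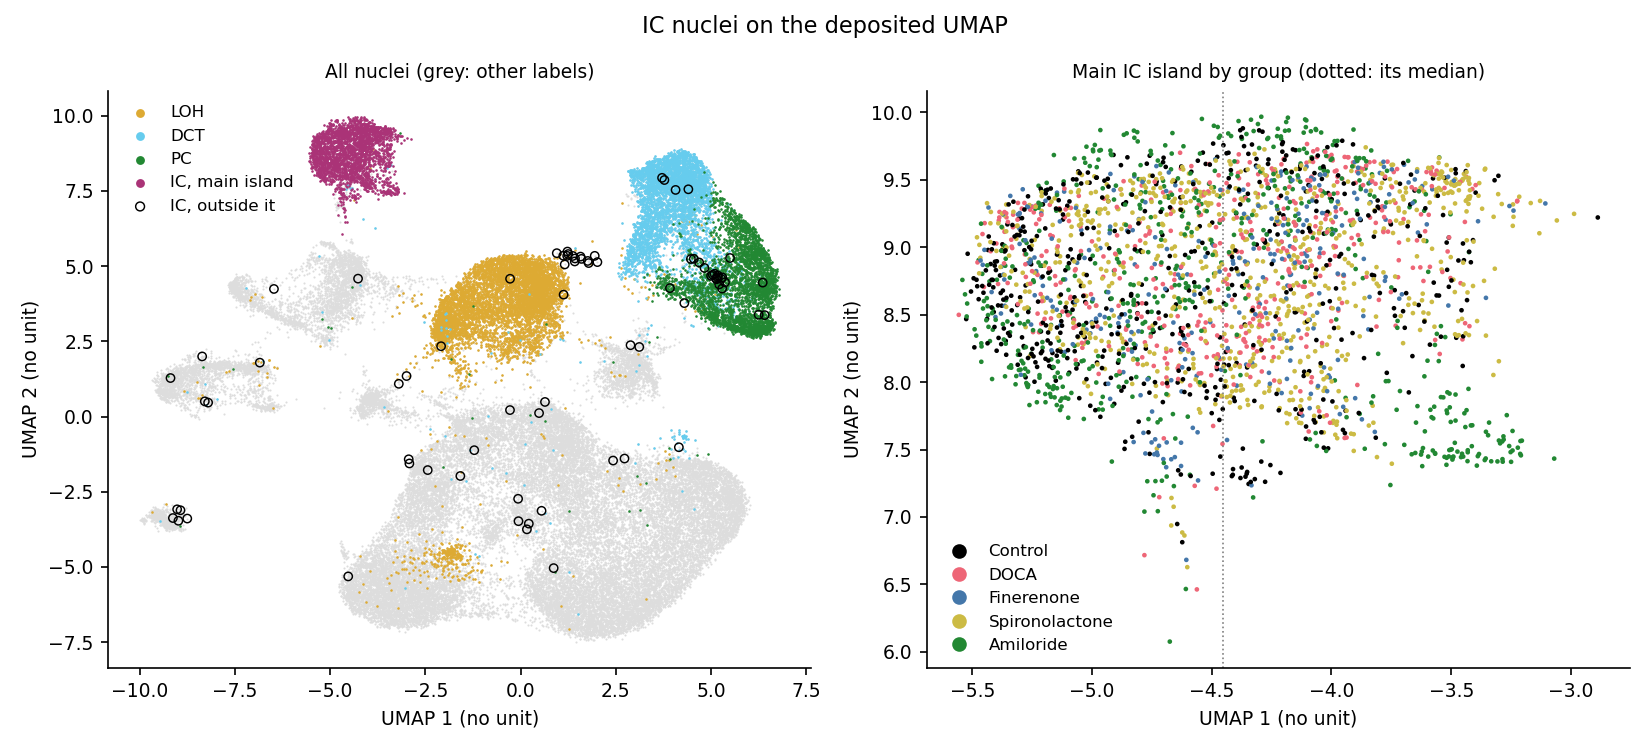
The deposited UMAP (both axes without a unit). On the left all nuclei are grey, with LOH, DCT and PC in colour, the main IC island at the top and the 78 IC nuclei outside it as open circles. On the right the 2730 nuclei of the main island are coloured by group with their horizontal median dotted, and the lower right corner is almost wholly Amiloride.

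The IC nuclei outside the island were few in each library, and 2 of their groups came almost wholly from 1 library. They made up 1.22% (6 of 490) in Control Multiome, 2.61% (12 of 459) in DOCA Multiome, 1.80% (5 of 278) in Finerenone Multiome, 3.66% (28 of 764) in Spironolactone Multiome and 3.64% (23 of 632) in Amiloride. In the scATAC libraries there were 0 to 2 such nuclei each. DOCA scATAC had 0 of 32, which allows a share of up to 9.38% (3 counts of the total), with an exact 95% interval to 10.9%. No difference over the groups passed the test (exact permutation within kits, p = 0.667, adjusted p = 0.667), and the counting intervals of all libraries overlapped.

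A group of 16 IC nuclei lay within the PC territory, where 65.4% of its neighbours were PC and 25.0% DCT, and 14 of the 16 were from Amiloride. A group of 15, all from Spironolactone Multiome, lay beside the LOH, with IC at 50.7% and LOH at 38.7% of its neighbours. A group of 5 lay among podocytes (Podo), which were 96.0% of its neighbours, and 4 of these were from Amiloride. Over all 78 IC nuclei outside the island, the neighbours were 20.5% PC, 12.8% PST, 12.4% DCT, 12.1% LOH and 11.7% IC. The iPT label held 7.26%, Podo 6.15%, Fibroblast 5.90% and PCT 5.47%, so that these nuclei did not lie among distal labels alone. No doublet caller was applied here, and whether the authors removed doublets from the ATAC nuclei is not given in the sources used here. In the other direction, 77 nuclei of other labels had mostly IC neighbours, of which 50 had a proximal label (25 PCT, 15 iPT and 10 PST), 10 were LOH, 6 DCT and 1 PC. The proximal labels thus held 64.9% of these nuclei, beside 58.0% of all nuclei without the IC label. The proximal labels are named here after their counts were seen. Counting IC by map position in place of the label changed no library by more than 10 nuclei, the largest shift being from 490 to 500 in Control Multiome.

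Inside the island, libraries were not evenly mixed. Of the neighbours of an Amiloride nucleus within the island, 43.0% were from the same library, against a share of 22.3% that the library holds, a ratio of 1.93. The ratios in the other Multiome libraries ran from 1.29 in DOCA to 1.49 in Finerenone. In the scATAC libraries, with 32 to 58 island nuclei each, they were 0.917 in DOCA and 1.98 to 2.29 in the others. To the right of the median of the island lay 60.1% of Spironolactone Multiome, 54.4% of DOCA Multiome and 51.6% of Finerenone Multiome nuclei. The Amiloride and Control Multiome libraries lay to the left, with 43.5% and 40.1%. In the scATAC libraries the shares were 37.5% in Spironolactone, 40.0% in Finerenone, 48.3% in Control and 53.1% in DOCA. DOCA thus lay to the right and Control to the left with both kits, while Spironolactone and Finerenone lay to the right with Multiome and to the left with scATAC.

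A corner of the island at its lower right, bounded at -3.8 on the first and 7.8 on the second map axis after the plot was seen, held 78 nuclei, of which 77 were from Amiloride and 1 from Spironolactone Multiome. These were 12.6% of the Amiloride nuclei in the island. None of the 484 Control Multiome nuclei lay there, which allows a share of up to 0.620% (3 counts of the total). A tail of 115 nuclei at the lower edge, left of -4.1, came from 6 libraries. It held 8.62% of Control scATAC nuclei (5 of 58) and none in DOCA (0 of 32), Finerenone (0 of 35) or Spironolactone (0 of 56) scATAC, which allows shares of up to 9.38%, 8.57% and 5.36%. With the Multiome kit it held 7.23% of Control, 8.79% of Finerenone, 4.27% of Amiloride, 2.17% of Spironolactone and 2.01% of DOCA nuclei. With 1 Amiloride library, drug and library cannot be told apart, and the corner was chosen for its values and not tested. Without the nuclei of the corner, IC would be 13.5% of the non-proximal nuclei of Amiloride (555 of 4122) in place of 15.1%.

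**Figure D5:**
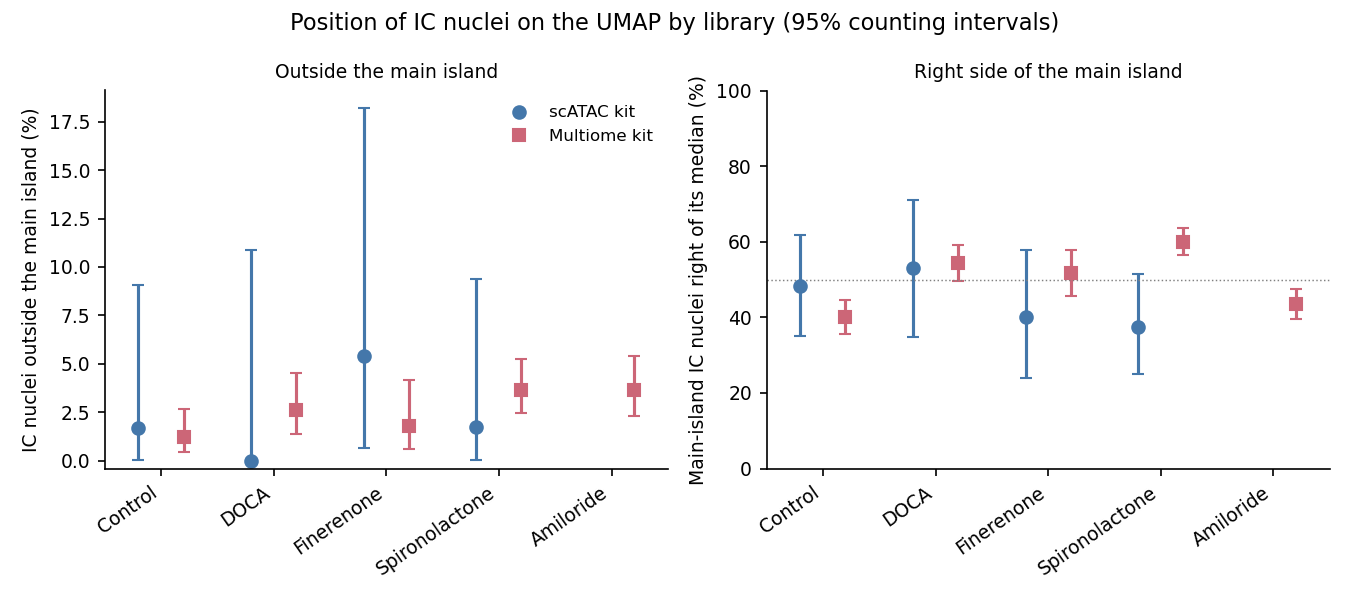
Percent of IC nuclei outside the main island (left) and percent of main-island IC nuclei to the right of its median (right) by library; circles are scATAC and squares Multiome libraries, with exact 95% counting intervals. The shares outside overlap throughout, and on the right Spironolactone Multiome at 60.1% and Spironolactone scATAC at 37.5% lie on opposite sides of the dotted line at 50%. The interval of Spironolactone scATAC, 24.9% to 51.5%, reaches past that line.

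Barcodes shared between libraries numbered 4 among IC nuclei over the 10 pairs of Multiome libraries and 0 over the 6 pairs of scATAC libraries. Among all nuclei they numbered 1328 over the Multiome pairs (53 to 244 a pair) and 59 over the scATAC pairs. Libraries of the same kit draw on the same barcode list, and the Multiome libraries are the larger. The number of shared barcodes that this alone would give was not computed. The library codes begin with letters and a number, followed by a second number. The DOCA pair share this whole beginning, as do the Spironolactone pair, and Control Multiome with Amiloride. Control scATAC shares only the letters and first number with the latter 2, and the Finerenone codes differ in that number. The Amiloride code is the only code marked as new, while the codes of all other libraries are marked as old. The meaning of this mark is not stated, and whether it stands for a batch was not tested. Control Multiome and Amiloride had different treatments, so that their shared beginning cannot mean a shared rat. For the DOCA pair and the Spironolactone pair, no source says if a shared code means a shared rat.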

How the data were processed

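The authors profiled nuclei of whole rat kidneys by snATAC-Seq, aligned the reads with Cell Ranger ATAC 1.1.0 to the rat genome rn6, and merged the libraries in Signac 1.3.0. They filtered nuclei on the number and share of fragments within peaks, on nucleosome signal and on transcription start site enrichment, corrected batches with Harmony, clustered, and named clusters from accessibility at marker genes. Losses at those filters are part of every share. The deposited annotation gives each nucleus a library code, a treatment and a label. The deposited UMAP coordinates are a score without a unit. Peak counts and gene activities were not analysed here.

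The treatment recorded for a code gave its group, and the barcode list gave its kit. Nuclei were counted per library and label (Python 3.11.15, pandas 2.3.3), and no nucleus was left out. Log2 odds of each label, with 0.5 added to both counts, were fitted with limma 3.58.1 in R 4.3.3, with group and kit as terms over all 9 libraries. Benjamini-Hochberg adjustment was made within each comparison. Limma estimated infinite prior degrees of freedom, and all labels took 1 spread, 0.564 for all nuclei and 0.450 for non-proximal nuclei, against 0.335 and 0.298 for IC itself. The tests thus had 36 and 27 degrees of freedom, where each label by itself leaves 3. Shares of 1 total are not independent of each other, which this pooling does not take into account. Intervals of shares and ratios are exact (scipy 1.17.1). Ratios were permuted as log2 values with 0.5 added to each count. Neighbours are the 15 nearest nuclei on the UMAP. By the rule for names, IC is described throughout, with LOH, DCT and PC beside it, and another label where it holds at least 5% of the neighbours of an IC group. Nuclei are not replicates, so that tests run over libraries. The members, lists and tests were chosen with earlier results of these data known. The steps were tested on simulated data. Alternatives included another pseudocount, other scales, thinning every library to 1817 nuclei, and leaving out each library.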

Additional observations from a re-analysis of the deposited data

How the results depend on the processing

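Of 357 recomputed values over 28 results, 337 kept their direction and side of the threshold. The fall of IC among non-proximal nuclei from Control to DOCA lost its call without the kit term (-1.47) and with each label's own spread (-1.47), and ranged from -1.88 to -1.06 over the libraries left out. The kit difference among all nuclei lost its call with each label's own spread (1.64) and ranged from 1.49 to 1.79 without single libraries. Past the threshold came Amiloride minus DOCA among non-proximal nuclei on the arcsine scale (0.115), and the kit difference among non-proximal nuclei on the arcsine scale (0.0704) and as a centred log-ratio (0.869). Over single libraries left out, the unadjusted permutation p ranged from 0.0104 to 0.2 for the non-proximal share and from 0.0104 to 0.25 for the share of LOH, DCT, PC and IC nuclei, where the adjusted p fell to 0.0417 without DOCA Multiome. Among all nuclei the sign turned in Finerenone minus DOCA without Finerenone scATAC (-0.056, range -0.056 to 0.56), and in Finerenone minus Spironolactone without Spironolactone scATAC (0.14) and without Finerenone Multiome (0.22; range -0.40 to 0.22). The kit difference turned for the ratio to LOH without the DOCA pair (-0.095, range -0.095 to 0.50), and for nuclei outside the island without the Finerenone pair (0.16, range -0.73 to 0.16). For nuclei with mostly other neighbours it turned in thinned libraries (0.099) and without the Control or Finerenone pair (0.091 and 0.35, range -0.43 to 0.35). The causes were not tested.

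The planned test of a second IC island gave no value, since no second group reached 20 nuclei, and nuclei outside the main island were tested in its place after the data were seen. Amiloride with DOCA alone leaves no residual degrees of freedom and was not fitted. No paired analysis was possible because the groups compared share at most 1 number in their titles, the 5 of DOCA, Finerenone and Spironolactone Multiome; the pairing of kits within groups is the one reported. With 32 to 59 IC nuclei, the scATAC libraries limit the precision of each IC value that uses them. The other alternatives chosen after the data were seen were IC counted by map position and those of the kit pairs.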
